A study of Mus musculus with 6 samples.

Results

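The respiratory chain and the ATP synthase are described here as 93 nuclear genes out of 23366 in the count table of sorted mouse CD4+ effector T cells. They were chosen by name alone, as all genes whose symbol begins with Nduf followed by a, b, c, s or v, Uqcr, Cox4 to Cox8 or Atp5, together with Sdha to Sdhd and Cycs. By complex, 45 were counted with complex I, 4 with complex II, 8 with complex III, 18 with complex IV and 17 with the ATP synthase. Cycs encodes cytochrome c. These counts, and the sums and medians by complex below, include other genes that the name rule brought in. They are 7 complex I assembly factors (the Ndufaf genes), Cox7a2l, which acts on supercomplexes, and Atp5s and Atp5sl, which are named for the ATP synthase and are not structural subunits of it. Ndufa4 and Ndufa4l2, since placed in complex IV, were counted with complex I by name. The name rule used no measured value, but earlier results of these data were known when it was chosen.

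The libraries came from CD4+ Teff cells taken out of the mesenteric lymph nodes of hosts that lack Rag. Without Rag, host-derived T and B lymphocytes are absent. The cells were taken 6 weeks after the T cells had been transferred. The labels give FVB/N as the strain background and name no other allele, treatment or animal age. The cells were sorted on rhodamine 123, a dye exported by the Mdr1 transporter: the Mdr1+ group is the dye-low fraction (Rh123lo) and the Mdr1- group the dye-high fraction (Rh123hi), with 3 libraries each. Mdr1+ and Mdr1- are therefore sort gates, although the labels list them under genotype. Rhodamine 123 is also a cation that energised mitochondria take up, which limits the sort as a model of Mdr1 activity alone, and dye content was not analysed here. Separate mice, pools or technical repeats are not told apart in the labels, so a p-value here reflects only variation among libraries, which may be technical.

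Complexes I and II pass electrons from NADH and succinate to ubiquinone, complex III passes them on to cytochrome c, and complex IV passes them to oxygen. Complexes I, III and IV pump protons across the inner mitochondrial membrane, and the ATP synthase, often called complex V, uses their return to make ATP. Most subunits are encoded in the nucleus, and in T cells demand on this machinery is known to differ between resting, dividing and memory cells. Subunits encoded by mitochondrial DNA are not analysed here.

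Transcription factors with known sites in promoters of these genes include NRF-1 (nuclear respiratory factor 1), GABP of the ETS family, and YY1. Their letters were searched on both strands of the 300 bases from 250 before to 50 after each annotated start (RefSeq, GRCm38.p6), which were found for 77 members. The NRF-1 letters GCGCATGCG stood in 11 of the 77 (14.3%) against 1.95% of 27025 genes with such a window. The ETS letters CCGGAAG stood in 17 (22.1%) against 9.93%, and the YY1 letters AAGATGGCG in 8 (10.4%) against 1.64%. Any of the 3 stood in 31 (40.3%) against 12.7%. Each share was thus higher among the members than among all genes, while the members with and without the letters had close fold changes. The median log2 fold change of Mdr1+ over Mdr1- cells was -0.43 in the 10 tested members with the NRF-1 letters and -0.38 in the 60 without. It was -0.39 with and -0.37 without the ETS letters, and -0.36 with and -0.38 without the YY1 letters. A match is a run of letters, not a bound site.

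The promoters of 4 members are shown, chosen after the values were seen: Cox6a1 and Atp5j2, of subunits with less transcript in Mdr1+ cells, and Ndufs3 and Cycs, whose fitted differences were positive. Capitals mark the motif letters, positions count from 1 at the annotated start and from -1 at the base before it, and all windows lie on the minus strand. In Cox6a1 (chr5:115348909-115349208) the NRF-1 letters begin at -162 and, on the other strand, at -161, so that the matches overlap, and an antisense ETS match begins at -16. In Atp5j2 (chr5:145191492-145191791) the YY1 letters begin at 24, past the start. In Ndufs3 (chr2:90904672-90904971) ETS matches begin at -27 and, antisense, at 2, and in Cycs (chr6:50566520-50566819) an antisense NRF-1 match begins at -61.
Cox6a1: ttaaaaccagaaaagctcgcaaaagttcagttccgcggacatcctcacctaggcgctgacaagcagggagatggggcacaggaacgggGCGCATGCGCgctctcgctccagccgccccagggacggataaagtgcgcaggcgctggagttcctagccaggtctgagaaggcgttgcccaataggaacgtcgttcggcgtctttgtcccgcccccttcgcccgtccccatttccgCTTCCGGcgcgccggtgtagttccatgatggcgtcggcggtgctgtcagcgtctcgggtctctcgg
Atp5j2: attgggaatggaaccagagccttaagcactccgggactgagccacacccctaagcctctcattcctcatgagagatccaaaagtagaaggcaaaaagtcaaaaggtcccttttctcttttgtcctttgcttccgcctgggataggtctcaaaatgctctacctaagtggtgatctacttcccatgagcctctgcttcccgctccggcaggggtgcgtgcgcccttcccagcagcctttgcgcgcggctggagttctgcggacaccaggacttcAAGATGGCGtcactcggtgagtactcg
Ndufs3: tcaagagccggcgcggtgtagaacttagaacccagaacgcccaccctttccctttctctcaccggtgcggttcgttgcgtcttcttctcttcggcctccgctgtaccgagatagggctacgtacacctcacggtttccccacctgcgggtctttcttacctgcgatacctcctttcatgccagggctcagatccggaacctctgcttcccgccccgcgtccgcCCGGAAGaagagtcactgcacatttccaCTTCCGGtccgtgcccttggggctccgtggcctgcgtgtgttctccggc
Cycs: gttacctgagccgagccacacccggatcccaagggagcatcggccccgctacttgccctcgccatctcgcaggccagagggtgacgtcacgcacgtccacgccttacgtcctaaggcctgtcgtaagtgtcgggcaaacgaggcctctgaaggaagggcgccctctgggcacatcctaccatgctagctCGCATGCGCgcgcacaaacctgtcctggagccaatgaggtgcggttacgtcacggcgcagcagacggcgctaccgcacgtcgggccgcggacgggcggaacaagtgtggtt

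Reads in genes ranged from 2220691 to 20771456 per library, and the shallowest was the Mdr1+ library of replicate 3. Values in CPM (counts scaled to the total in genes) are scaled by TMM, which sets the libraries to a shared level over most genes. A floor of 3 counts equals 0.144 to 1.35 CPM. Markers matched the labelled cell type: the summed level of 5 T cell markers was 2548 to 3060 CPM in Mdr1+ and 2534 to 2815 CPM in Mdr1- libraries, and Cd8a and Cd8b1 together reached at most 1.50 CPM in Mdr1+ and 2.21 CPM in Mdr1- libraries. The counts of replicate 3 were deposited in another row order than the gene names and were put in order first, a step that every value below rests on.

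The transcripts of the chain as a whole were less abundant in Mdr1+ cells in every replicate number, and so were those of each of complexes I to IV and of the ATP synthase. Summed over the 93 genes, the level was 4644, 5059 and 3923 CPM in Mdr1+ replicates 1, 2 and 3, against 5855, 6727 and 5231 CPM in Mdr1- replicates 1, 2 and 3. The Mdr1+ sums lay below all Mdr1- sums, at 4542 ± 575 against 5938 ± 751 CPM (SD, n = 3 each), and the ratios of Mdr1+ to Mdr1- within replicate numbers were 0.793, 0.752 and 0.750. In these bulk libraries, fewer cells of a type and less RNA per cell cannot be told apart.

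By complex, the ratios of summed level in replicates 1, 2 and 3 were 0.807, 0.793 and 0.781 for complex I and 0.782, 0.761 and 0.672 for complex II. They were 0.823, 0.791 and 0.843 for complex III, 0.753, 0.724 and 0.719 for complex IV and 0.789, 0.718 and 0.727 for the ATP synthase. All 15 ratios of these complexes were thus below 1. Cytochrome c, which carries electrons between complexes III and IV, went the other way, with ratios of 1.19, 1.06 and 1.41.

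**Figure D1:**
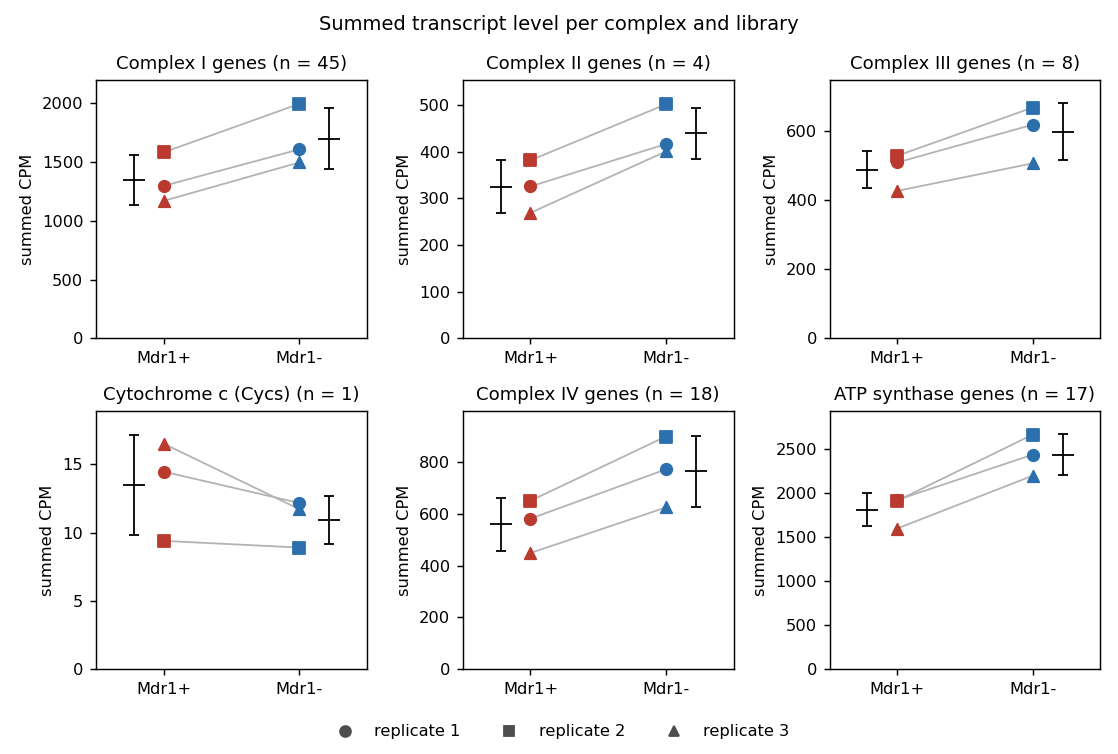
TMM-scaled CPM summed over the genes of each complex (y axis, linear from 0) for Mdr1+ and Mdr1- libraries; symbols mark replicate numbers, grey lines join libraries of the same number, and black bars give the mean and SD of 3 libraries. Every line falls toward Mdr1+ for complexes I to IV and the ATP synthase, and the Cycs panel, at 9.39 to 16.5 CPM in Mdr1+ and 8.91 to 12.2 CPM in Mdr1- libraries, shows the opposite slope.

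Of the 93 genes, 82 had enough counts to be tested among 10897 genes. The fitted log2 fold change (Mdr1+ over Mdr1-) was negative for 73 of the 82 (89%), with a median of -0.39, against 0.039 over all tested genes. In edgeR's quasi-likelihood test with group as the only term, 0 of the 82 passed a Benjamini-Hochberg adjusted p of 0.05 in either direction, where 1.95% of all genes were lower and 0.275% higher. At an unadjusted p under 0.05 there were 14, of which 13 were lower and Ndufs3 was higher. Of all 10897 tested genes, 1292 were under that p, 787 of them lower. DESeq2 also called 0, and the lowest adjusted p of edgeR was 0.164, for Cox5a.

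Libraries of the same replicate number resembled each other beyond their group, so the fit was repeated with the number as a block. The test with group alone was the main one, and the block was an alternative. The labels state no pairing, and the pairing was taken from these same data. A p-value with the block reflects how far the difference between the groups varies across replicate numbers. With the block, 21 of the 82 (25.6%) were lower in Mdr1+ cells at adjusted p of 0.05, against 6.57% of all genes, and 0 were higher, against 5.81%. The median was -0.40 with the block. Without replicate 1 there were 16 lower calls, 12 of them among the 21, and in that fit 6.26% of all genes were lower and 3.93% higher. Without replicate 2 there were 6 lower calls, 5 of them among the 21 and the other Atp5c1, and in that fit 3.66% of all genes were lower and 2.42% higher. Leaving out replicate 3 gave 41 lower calls, which held all 21, and 1 higher call, Ndufaf4, where 12.1% of all genes were lower and 10.1% higher. Below, "fell" is used only of the genes that passed with the block. Log2 fold changes with their standard errors, and adjusted p-values, are those of the fit with the block unless said otherwise.

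The values of the libraries themselves gave a similar split. The 3 Mdr1+ values lay below the 3 Mdr1- values for 25 members (30.5%), against 11% of all tested genes, and above them for 1 (1.22%), Ndufaf4, against 8.71%. Within replicate numbers, 57 members (69.5%) were lower in Mdr1+ in all 3 pairs, against 24.6% of all genes, and 4 (4.88%) were higher in all 3, against 28.2%. Those 4 were Ndufaf4, Ndufs3, Cox7c and Cycs, named after their values were seen. The median log2 ratio of the members was -0.32, -0.36 and -0.43 in pairs 1, 2 and 3, against -0.0037, 0.092 and -0.016 for all tested genes.

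**Figure D2:**
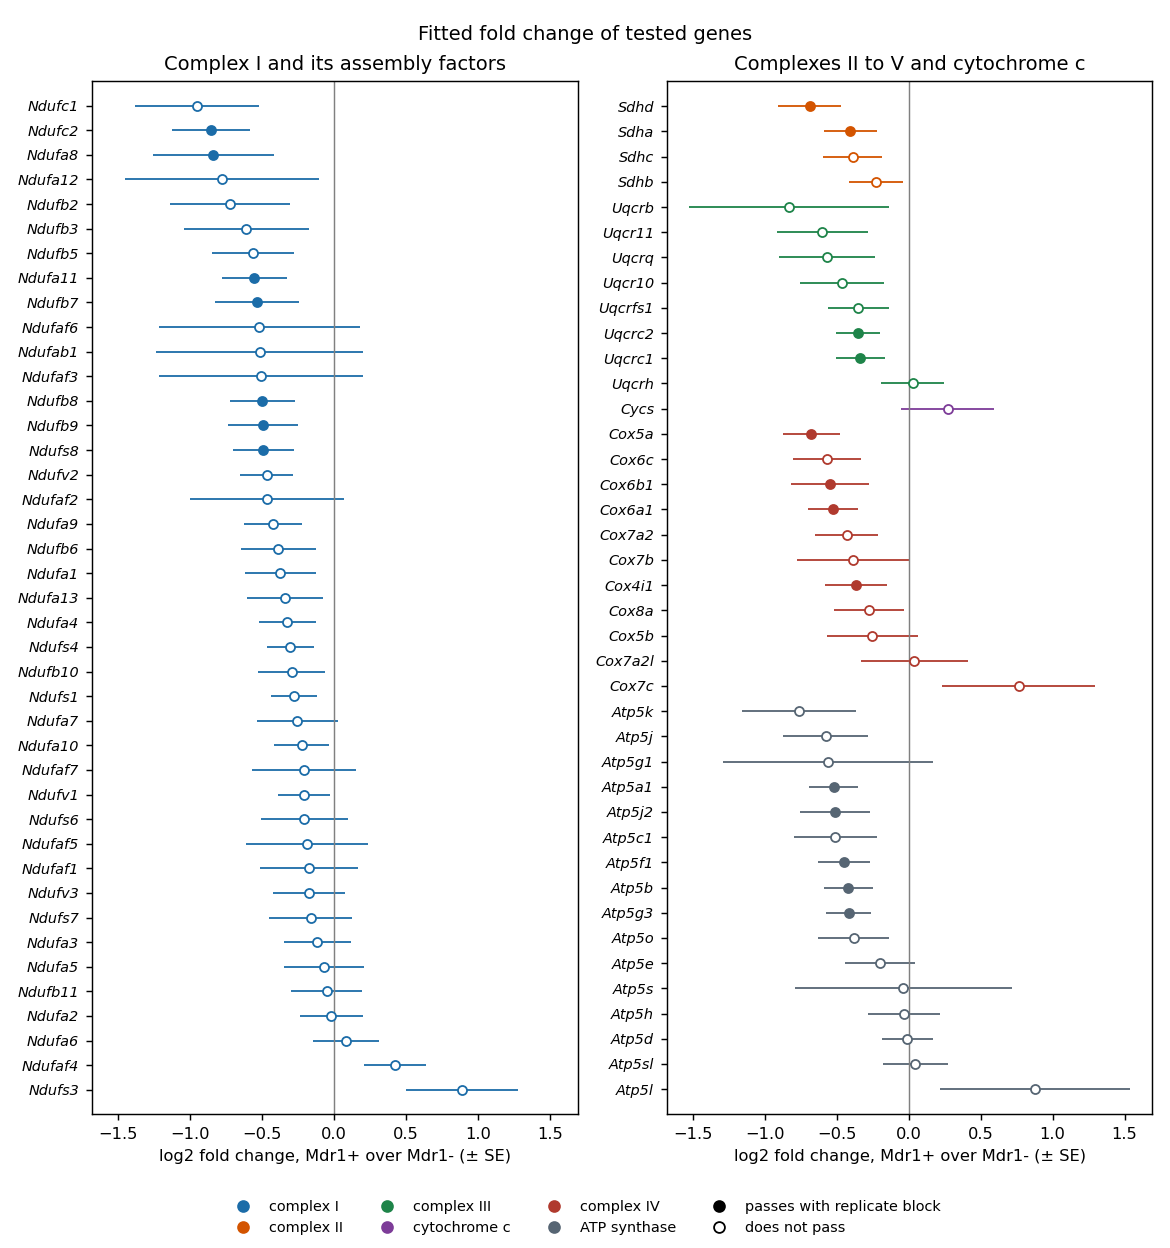
Fitted log2 fold change of Mdr1+ over Mdr1- (x axis) with its standard error for tested genes, from the fit with group as the only term; colours mark complexes, and filled points passed an adjusted p of 0.05 once replicate number was added as a block. Most points lie left of 0, between -0.95 for Ndufc1 and 0.89 for Ndufs3, and filled points occur in every complex.

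Complex I takes electrons from NADH. Of its 42 tested genes 8 fell, 0 rose, 39 had a negative fitted change and the median log2 fold change was -0.36. Ndufc2, an accessory subunit of the membrane arm, was at 18.4, 20.8 and 10.4 CPM in Mdr1+ cells, against 32.9, 30.6 and 29.4 CPM in Mdr1- cells. The groups did not overlap, and the Mdr1+ library of replicate 3 was the lowest. Ndufc2 fell by 0.88 ± 0.21 on the log2 scale (SE, adjusted p = 0.0291). Ndufs8, a core subunit that holds iron-sulfur clusters, fell by 0.51 ± 0.14 (adjusted p = 0.0421), with Mdr1+ replicate 2 at 43.6 CPM just above Mdr1- replicate 3 at 43.5 CPM.

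Other genes of complex I that fell encode further accessory subunits. Ndufa11 was at 26.9, 32.8 and 21.7 CPM in Mdr1+ and 40.9, 46.2 and 34.3 CPM in Mdr1- cells, without overlap (-0.57 ± 0.15, adjusted p = 0.0384). Ndufa8 had the lowest blocked value of the 21, at -0.92 ± 0.24 (adjusted p = 0.0413), but its Mdr1+ libraries ranged from 7.54 to 30.8 CPM and reached into the Mdr1- range of 29.4 to 50.3 CPM. Ndufb7, Ndufb8 and Ndufb9, all of the membrane arm, fell by 0.56 ± 0.15 (adjusted p = 0.0426), 0.51 ± 0.12 (adjusted p = 0.0244) and 0.51 ± 0.13 (adjusted p = 0.0388), and for each of them the groups overlapped although the Mdr1+ value was the lower one in all 3 pairs.

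By role, the 7 core subunits of complex I had a median log2 fold change of -0.28 with 2 calls, and the 27 tested accessory subunits -0.39 with 6 calls. Ndufs1, the core subunit that holds iron-sulfur clusters near the NADH site, was at 114, 93.6 and 92.0 CPM in Mdr1+ and 123, 117 and 123 CPM in Mdr1- cells. Its groups did not overlap, yet the difference of -0.28 ± 0.10 did not pass (adjusted p = 0.117). Ndufc1, an accessory subunit with little transcript, was at 6.65, 7.52 and 1.89 CPM in Mdr1+ and 9.71, 11.9 and 12.1 CPM in Mdr1- cells. Its fitted value of -0.95 ± 0.43 without the block was the lowest of all members, and with the block it was -1.0 ± 0.39 (adjusted p = 0.135). Ndufa4, first described in complex I and since placed in complex IV, was at 61.5, 52.3 and 59.4 CPM in Mdr1+ and 84.0, 76.0 and 56.2 CPM in Mdr1- cells, so that the order was turned in pair 3.

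Ndufs3, a core subunit, stood apart from the rest of complex I. It was at 8.64, 12.2 and 20.8 CPM in Mdr1+ cells and 5.69, 8.73 and 7.30 CPM in Mdr1- cells. The Mdr1+ value was the higher one in every pair and most so in replicate 3, where it rested on 44 counts. The fitted difference was 0.89 ± 0.39 without the block and 0.83 ± 0.31 with it, and passed in neither fit (adjusted p = 0.415 and 0.119).

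The 7 Ndufaf assembly factors, which help to build complex I and are not part of it, had a median of -0.21 and 0 calls. Ndufaf4 was at 27.2, 25.4 and 25.9 CPM in Mdr1+ and 20.4, 17.4 and 20.9 CPM in Mdr1- cells, and was the member whose 3 Mdr1+ values all lay above the Mdr1- values. Its log2 fold change of 0.44 ± 0.18 did not pass (adjusted p = 0.148).

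Complex II, succinate dehydrogenase, links the citric acid cycle to the chain, and all 4 of its genes had lower Mdr1+ values in all 3 pairs. Sdhd, one of the membrane anchors, was at 66.5, 68.3 and 42.0 CPM in Mdr1+ cells and 90.4, 112 and 85.8 CPM in Mdr1- cells. The groups did not overlap, the Mdr1+ library of replicate 3 was the lowest, and Sdhd fell by 0.70 ± 0.13 (adjusted p = 0.0108). Sdha, the flavoprotein that oxidises succinate, was at 148, 176 and 119 CPM in Mdr1+ and 185, 214 and 190 CPM in Mdr1- cells and fell by 0.41 ± 0.10 (adjusted p = 0.0326). Sdhc, the other anchor, was at 47.5, 59.7 and 42.4 CPM in Mdr1+ and 66.0, 77.0 and 54.7 CPM in Mdr1- cells. Its difference of -0.40 ± 0.12 missed the threshold (adjusted p = 0.0632). Sdhb, the iron-sulfur subunit, was at 63.8, 77.0 and 65.5 CPM in Mdr1+ and 74.8, 97.6 and 70.0 CPM in Mdr1- cells, with overlapping groups and a difference of -0.23 ± 0.12 (adjusted p = 0.224).

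Complex III had 8 tested genes, of which 2 fell, with a median log2 fold change of -0.41. Uqcrc1 and Uqcrc2 encode the large core proteins on its matrix side. Uqcrc1 was at 120, 144 and 122 CPM in Mdr1+ and 153, 186 and 149 CPM in Mdr1- cells, and Uqcrc2 at 116, 113 and 100 CPM in Mdr1+ and 149, 140 and 132 CPM in Mdr1- cells. Neither overlapped between groups, and they fell by almost the same amount, 0.34 ± 0.09 (adjusted p = 0.0391) and 0.35 ± 0.09 (adjusted p = 0.0396). Uqcrfs1, the Rieske iron-sulfur protein, had a difference of -0.36 ± 0.10 that missed the threshold (adjusted p = 0.0525).

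The hinge protein gene Uqcrh, whose product sits beside cytochrome c1, behaved differently within complex III. It was at 132, 123 and 88.7 CPM in Mdr1+ and 125, 128 and 85.4 CPM in Mdr1- cells. Its values went with the replicate number rather than the sort, and the fitted difference, 0.026 ± 0.22 without the block and 0.020 ± 0.097 with it, changed sign with the libraries used. Uqcr11, a small accessory subunit, was at 8.14, 9.67 and 7.07 CPM in Mdr1+ and 13.1, 15.6 and 9.68 CPM in Mdr1- cells, with a difference of -0.63 ± 0.26 that did not pass (adjusted p = 0.155).

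Cycs, the cytochrome c gene, was at 14.5, 9.39 and 16.5 CPM in Mdr1+ cells and 12.2, 8.91 and 11.7 CPM in Mdr1- cells. The Mdr1+ value was higher in all 3 pairs, by little in pair 2, and the groups overlapped. The fitted difference was 0.27 ± 0.32 without the block and 0.26 ± 0.25 with it (adjusted p = 0.806 and 0.553).

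Complex IV, cytochrome c oxidase, had 4 of 11 tested genes that fell, and a median log2 fold change of -0.39. Cox5a had the lowest adjusted p of all members without the block. It was at 69.1, 67.6 and 45.7 CPM in Mdr1+ cells and 96.2, 107 and 91.2 CPM in Mdr1- cells, without overlap. The gap between the groups was wider than the range of the Mdr1- libraries but narrower than that of the Mdr1+ libraries. Cox5a fell by 0.69 ± 0.13 (adjusted p = 0.00976). Cox6a1 was at 62.1, 64.5 and 53.8 CPM in Mdr1+ and 85.3, 97.7 and 77.6 CPM in Mdr1- cells, without overlap (-0.53 ± 0.11, adjusted p = 0.0170). Cox4i1, the largest nuclear-encoded subunit, was at 198, 233 and 162 CPM in Mdr1+ and 263, 308 and 196 CPM in Mdr1- cells. There the groups overlapped, since replicate number shifted both libraries of a pair, and it fell by 0.37 ± 0.08 with the block (adjusted p = 0.0230). Cox6b1, on the side that faces cytochrome c, fell by 0.58 ± 0.13 (adjusted p = 0.0235), with overlapping groups.

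**Figure D3:**
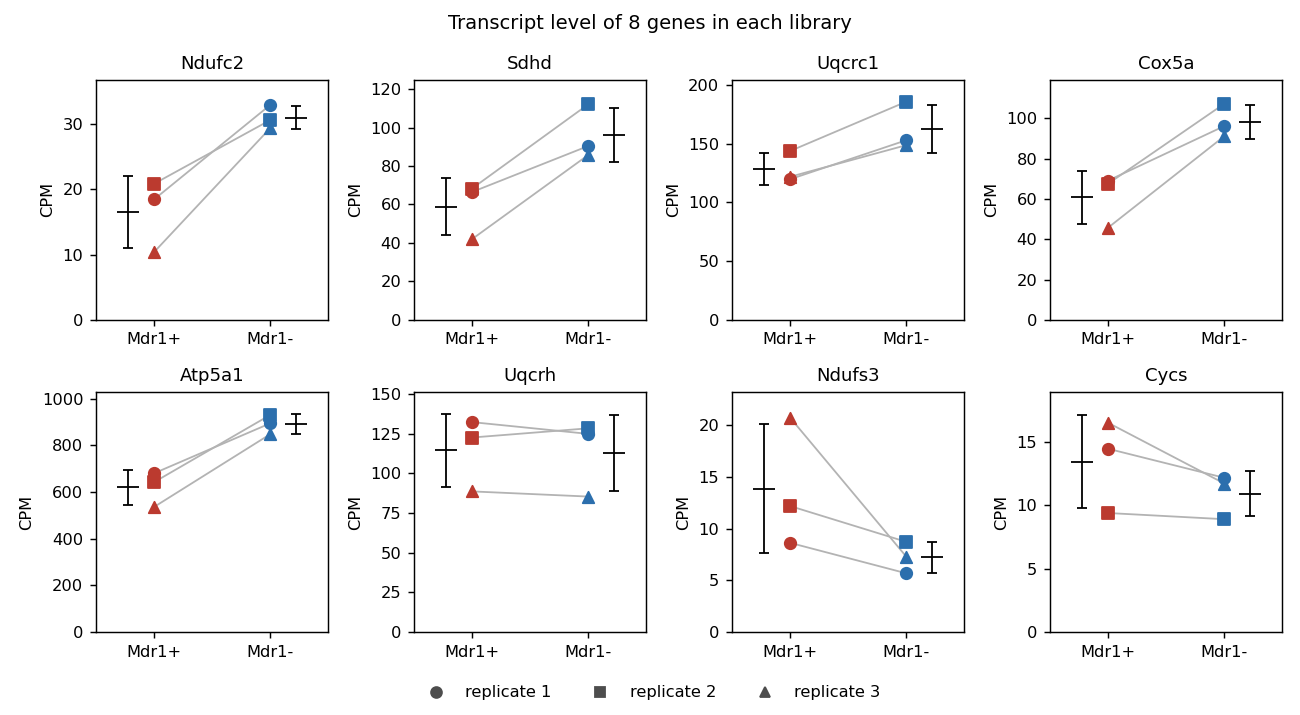
Level of 8 genes in TMM-scaled CPM (y axis, linear from 0) for Mdr1+ and Mdr1- libraries; symbols mark replicate numbers, grey lines join libraries of the same number, and black bars give the mean and SD of 3 libraries. Ndufc2, Sdhd, Uqcrc1, Cox5a and Atp5a1 are lower in Mdr1+ in every pair with no overlap, Uqcrh follows the replicate number, and Ndufs3 and Cycs are higher in Mdr1+ in every pair with overlapping groups.

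Several complex IV subunits exist as isoforms from separate genes, some of which are known to be kept to heart, skeletal muscle, lung or testis. The general forms carried the transcript here. Cox4i2 was at 0, 1 and 0 counts in Mdr1+ and 0 counts in each Mdr1- library, and Cox6a2, Cox7b2, Cox8b and Cox8c were at 0 counts in all 6 libraries. Cox6b2 was at 0, 6 and 0 counts in Mdr1+ and 6, 6 and 0 counts in Mdr1- libraries, and Cox7a1 at 0, 6 and 0 counts in Mdr1+ and 5, 8 and 0 counts in Mdr1- libraries. None of these 7 was tested. Cox6b2 and Cox7a1 were thus detected at a low level in libraries of both groups. Where all libraries were at 0, that count allows up to 3 counts in each, so the isoform was not detected at this depth rather than shown to be absent.

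Of the general forms with separate-gene partners, Cox7a2 was at 55.7, 56.8 and 44.8 CPM in Mdr1+ and 75.7, 85.3 and 52.5 CPM in Mdr1- cells (-0.44 ± 0.13, adjusted p = 0.0559). Cox7b was at 21.4, 19.4 and 6.60 CPM in Mdr1+ and 23.6, 25.6 and 15.3 CPM in Mdr1- cells, and Cox8a at 42.2, 60.2 and 57.1 CPM in Mdr1+ and 59.4, 84.0 and 49.2 CPM in Mdr1- cells. Neither passed, and for Cox8a the order was turned in pair 3. Cox7a2l, which helps to join complexes III and IV into supercomplexes, was at 14.9, 16.5 and 6.13 CPM in Mdr1+ and 11.4, 15.6 and 11.0 CPM in Mdr1- cells, a difference of 0.038 ± 0.37 without the block and -0.017 ± 0.28 with it.

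The ATP synthase had 5 of 16 tested genes that fell and a median log2 fold change of -0.42. Atp5a1 and Atp5b encode the alpha and beta subunits of the catalytic head, and Atp5b had the highest level per kilobase of exon of all members, with means of 303 CPM per kilobase in the Mdr1+ and 406 in the Mdr1- libraries. Atp5a1 was at 680, 642 and 536 CPM in Mdr1+ cells and 895, 931 and 848 CPM in Mdr1- cells. The highest Mdr1+ library was thus below the lowest Mdr1- library, and Atp5a1 fell by 0.53 ± 0.08, with the lowest blocked adjusted p of all members (0.00459). Atp5b was at 626, 568 and 548 CPM in Mdr1+ and 771, 869 and 692 CPM in Mdr1- cells and fell by 0.42 ± 0.09 (adjusted p = 0.0164).

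Outside the head, Atp5f1, the b subunit of the peripheral stalk that holds the head still, was at 44.9, 43.1 and 37.7 CPM in Mdr1+ and 62.5, 59.3 and 50.4 CPM in Mdr1- cells. It fell by 0.46 ± 0.13 and lay closest to the threshold (adjusted p = 0.0495). Atp5j2, the f subunit in the membrane, fell by 0.55 ± 0.14 (adjusted p = 0.0365), with overlapping groups. Atp5k, the e subunit, was at 12.8, 21.2 and 7.07 CPM in Mdr1+ and 17.4, 34.0 and 21.9 CPM in Mdr1- cells and missed the threshold (-0.81 ± 0.24, adjusted p = 0.0624). Of the genes named for the enzyme that are no structural subunits, Atp5sl was at 34.6, 52.7 and 33.5 CPM in Mdr1+ and 35.7, 43.7 and 39.0 CPM in Mdr1- cells, with a difference of 0.026 ± 0.15.

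The c ring, the rotor in the membrane, is built from 1 mature protein that 3 genes encode. Atp5g3 was at 98.7, 84.2 and 87.7 CPM in Mdr1+ and 126, 124 and 111 CPM in Mdr1- cells, without overlap, and fell by 0.43 ± 0.10 (adjusted p = 0.0284). Atp5g1 was at 2.33, 4.16 and 0 CPM in Mdr1+ and 2.57, 3.37 and 5.60 CPM in Mdr1- cells, and Atp5g2 was too low to be tested, at 3, 24 and 0 counts in Mdr1+ and 7, 7 and 2 counts in Mdr1- libraries. Per kilobase of exon, Atp5g3 had a mean of 125 CPM in Mdr1+ libraries, against 167 CPM in Mdr1- libraries. Atp5g1 had 0.440 CPM per kilobase in Mdr1+ libraries and 0.783 in Mdr1- libraries, and Atp5g2 had 0.739 in Mdr1+ libraries and 0.787 in Mdr1- libraries. Atp5g3 thus held nearly all the assigned c ring reads, with the caution on shared sequence that follows.

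Many subunit genes have processed pseudogenes, and the deposited table did not assign reads without a unique place in the genome. Between 67.0% and 73.2% of entries in replicates 1 and 2 were of that kind. As a measure of shared sequence, the longest protein-coding transcript of each member was cut into 50-base stretches. The share also found in transcripts of other genes was counted (GENCODE vM21). Tissue-restricted isoforms were left out of this count, and so was Ndufa4l2, the paralog of Ndufa4, which was at 0 counts with 0% shared. Of the remaining 76 structural genes, among which Cycs and Cox7a2l were kept, 11 were under 5 CPM per kilobase in Mdr1- cells, and 10 of these shared at least 10% of their stretches. Of the 65 at or above that level, 18 did. Both cuts were chosen after the values were seen. The level per kilobase divides by all annotated exon bases of a gene, so a gene with many such bases can fall under the cut. Ndufb2, under it, had a mean of 16.4 CPM in Mdr1- cells over 4375 bases. Cox5b, above it, had 9.32 CPM in Mdr1- cells over 920 bases. Atp5g1, Ndufab1 and Cycs, also under it, had 4912, 4387 and 3123 exon bases.

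The 10 were Atp5l (84.8% shared), Uqcrb (43.4%), Ndufb4 (37.0%), Ndufs5 (31.1%), Cycs (28.5%), Cox7c (27.9%), Ndufa12 (26.2%), Atp5g2 (14.8%), Ndufab1 (12.3%) and Atp5g1 (11.6%), and the exception among the 11 was Ndufb2 (5.39%). Ndufb4 was untested at 6, 25 and 6 counts in Mdr1+ and 8, 12 and 8 counts in Mdr1- libraries, and Ndufs5 at 1, 0 and 0 counts in Mdr1+ and 0, 2 and 0 counts in Mdr1- libraries. Both encode accessory subunits of complex I, and their levels are uncertain for that reason. Ndufa4l2, at 0 counts in all libraries, completes the 11 untested genes.

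Fitted changes were mostly negative at either level of sharing. Among the tested genes of this set, the 48 with under 10% shared had 46 negative fold changes, a median of -0.39, 15 blocked calls and a highest value of 0.080, for Ndufa6. The 25 with at least 10% shared had the same median of -0.39 and 6 calls, with 20 negative values and a highest value of 0.89. The 4 highest values were among these 25: Ndufs3 (39.7% shared), Atp5l (0.88 ± 0.66 without the block), Cox7c (0.76 ± 0.53 without the block) and Cycs. Cox5a, with 32.0% shared, was among their 6 calls. Ndufaf4, an assembly factor outside this set, was at 0.42 ± 0.21 without the block, with 0% shared. Whether reads of copies had a part in the positive values of this set was not tested.

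**Figure D4:**
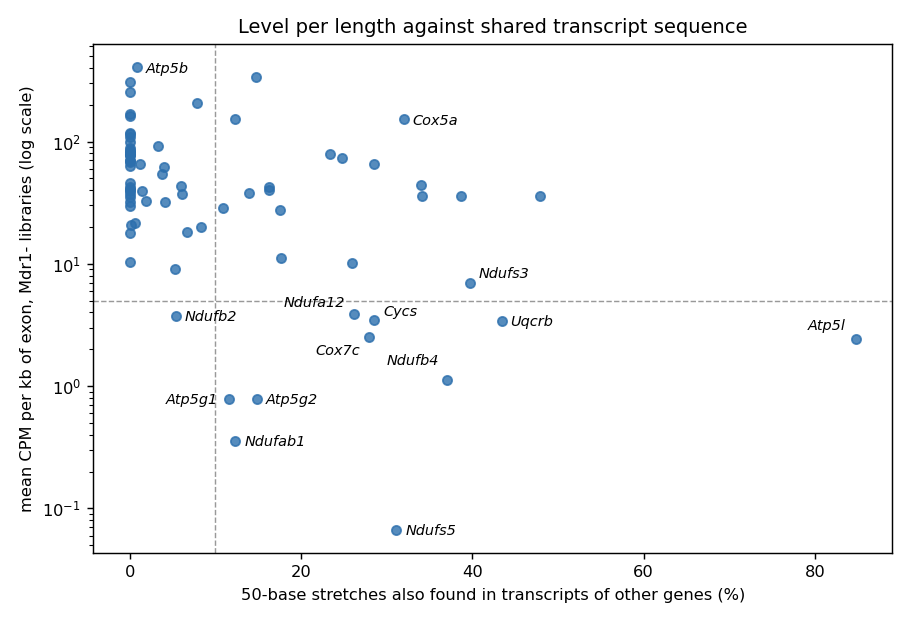
Mean CPM per kilobase of exon in the Mdr1- libraries (y axis, log scale) against the percentage of 50-base transcript stretches also found in transcripts of other genes (x axis) for 76 structural genes, with Cycs and Cox7a2l kept and Ndufa4l2 (at 0 on both axes) left out; dashed lines mark 5 CPM per kilobase and 10%. Of the 11 genes below the horizontal line, 10 lie right of the vertical line, Ndufb2 being the exception.

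Genes that build, feed or regulate the chain were followed as lists of related genes. These held 104 tested genes, of which 0 passed without the block (11 at unadjusted p under 0.05 in edgeR, and 2 lower calls by DESeq2, Atpif1 and Vdac1). Of all 10897 tested genes, 1292 were under that unadjusted p in edgeR. With the block 7 (6.73%) were lower, close to the 6.57% of all genes, and 2 (1.92%) were higher, against 5.81% of all genes. The counts became 4 lower and 1 higher without replicate 1, where 6.26% of all genes were lower and 3.93% higher. They were 0 and 1 without replicate 2, where 3.66% of all genes were lower and 2.42% higher. Without replicate 3 they were 13 and 4, where 12.1% of all genes were lower and 10.1% higher. Assembly factors of the complexes were listed together with the Ndufaf genes, Usmg5 and the inhibitor Atpif1, and the 51 tested genes of that list had a median of -0.057. In that list, 1 assembly factor had fewer transcripts in Mdr1+ cells with the block, Cmc2 of complex IV (-0.88 ± 0.24, adjusted p = 0.0426). Atpif1, which inhibits the ATP synthase when it runs in reverse, did so too (-1.17 ± 0.20, adjusted p = 0.00696). It was at 10.1, 14.6 and 10.9 CPM in Mdr1+ and 20.4, 38.1 and 22.1 CPM in Mdr1- cells. The 13 genes of coenzyme Q synthesis had a median of -0.046 and 1 call, Coq10b, which was higher (0.52 ± 0.11, adjusted p = 0.0181).

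The 20 mitochondrial mass markers had a median of -0.092. Among them Vdac1, the outer membrane channel, Cs, the citrate synthase of the citric acid cycle, and Phb2, a prohibitin of the inner membrane, fell with the block. Cs was at 140, 155 and 138 CPM in Mdr1+ and 202, 233 and 171 CPM in Mdr1- cells, without overlap (-0.48 ± 0.09, adjusted p = 0.0116). Vdac1 was at 25.3, 29.4 and 34.0 CPM in Mdr1+ and 43.5, 54.4 and 52.5 CPM in Mdr1- cells (-0.78 ± 0.14, adjusted p = 0.00925), and Phb2 fell by 0.39 ± 0.10 (adjusted p = 0.0350). The 19 regulators of mitochondrial DNA and biogenesis had a median of 0.14, with Pprc1, a coactivator related to PGC-1, at 107, 111 and 153 CPM in Mdr1+ and 78.8, 73.7 and 86.3 CPM in Mdr1- cells (0.61 ± 0.11, adjusted p = 0.00853). The 8 other electron inputs had a median of -0.40, as low as the subunits, and Etfb, of the electron transfer flavoprotein (-0.75 ± 0.16, adjusted p = 0.0156), and Gpd2, the glycerol-3-phosphate dehydrogenase of mitochondria (-0.58 ± 0.14, adjusted p = 0.0292), fell with the block.

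**Figure D5:**
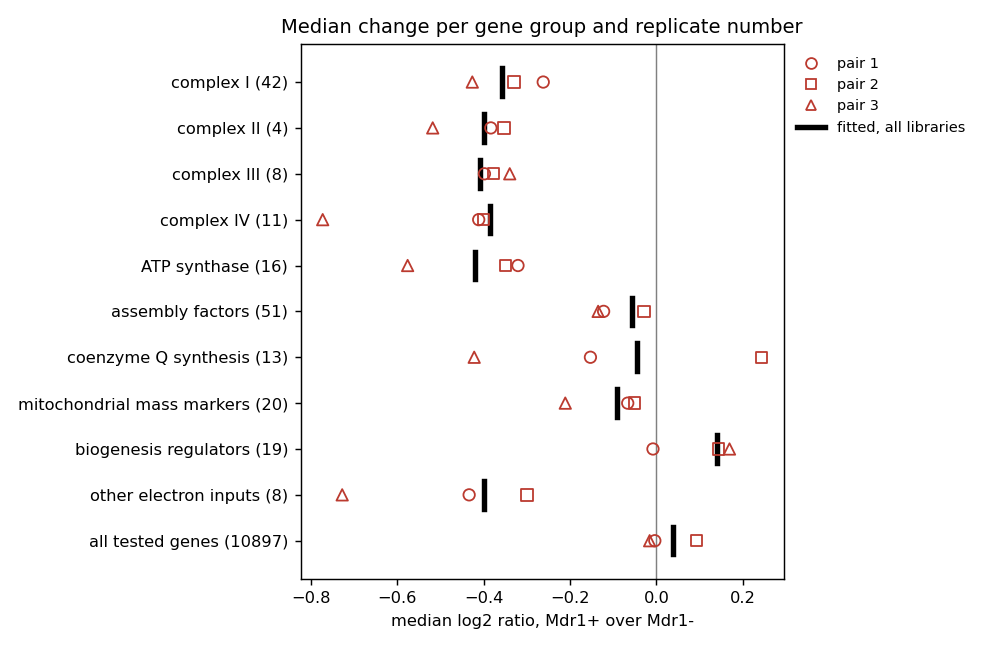
The x axis gives medians of the log2 ratio, Mdr1+ over Mdr1-, for the tested genes of each group, with their number in parentheses; open symbols are the libraries of 1 replicate number (0.5 CPM added) and the black bar is the median of fitted values over all libraries. Complexes I to IV, the ATP synthase and the other electron inputs lie left of 0 in all 3 pairs, with fitted medians of -0.42 to -0.36. Assembly factors (the list that also holds Atpif1 and Usmg5) and mitochondrial mass markers also lie left of 0 in all 3 pairs, with fitted medians of -0.057 and -0.092. The fitted median of all tested genes is 0.039.

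The sorted fractions also differed in cell cycle transcripts. Of 28 tested cell cycle genes 21 were lower in Mdr1+ cells without the block and 27 with it, the exception being Pcna, and all 28 were lower in every pair, with a median log2 fold change of -2.07. Mki67, a marker of dividing cells, was at 218, 178 and 241 CPM in Mdr1+ and 851, 1353 and 1488 CPM in Mdr1- cells (-2.54 ± 0.25, adjusted p = 0.00366 without the block). The part of cell division in the lower subunit levels was not tested.

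Among the markers of other cell types, the summed level of 5 dendritic cell markers was 22.8 to 45.3 CPM in Mdr1+ and 56.9 to 77.1 CPM in Mdr1- libraries, mostly Cd74. The 5 myeloid markers summed to 0.421 to 6.13 CPM in Mdr1+ and 1.56 to 82.2 CPM in Mdr1- libraries, and the upper value was replicate 3 alone, with Il1b at 36.7 CPM and Cd14 at 23.6 CPM. Flt3 was at most 0.0935 CPM in Mdr1+ and 0.335 CPM in Mdr1- libraries. The 4 B cell markers reached 12.7 CPM in Mdr1+ and 3.57 CPM in Mdr1- libraries, and the 5 stromal and endothelial markers, mostly Pecam1, 191 CPM in Mdr1+ and 137 CPM in Mdr1- libraries. Within that list Acta2, of smooth muscle, was at 0, 0.280 and 0 CPM in Mdr1+ and 4.35, 6.40 and 4.08 CPM in Mdr1- libraries (-4.70 ± 0.78 without the block, adjusted p = 0.0180). Cdh5, of endothelium, was at 0.332, 0.327 and 0.472 CPM in Mdr1+ and 1.79, 2.42 and 1.87 CPM in Mdr1- libraries (-2.51 ± 0.66 without the block, adjusted p = 0.116). The 3 muscle markers summed to at most 0.472 CPM in Mdr1+ and 0.679 CPM in Mdr1- libraries, and the 4 erythroid markers to at most 0.332 CPM in Mdr1+ and 0.170 CPM in Mdr1- libraries, with Hba-a1 and Hbb-b1 at 0 throughout. The members' median was -0.46 without Mdr1- replicate 3. The part of these other cell types in the subunit levels was not tested.

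The members' median stayed below 0 without any single library or replicate number, at -0.49 to -0.26, but its size depended on them. Mdr1+ replicate 3, the shallowest, was the lowest library for 56 of the 82 members, as it was for 28.6% of all tested genes, and without it the median was -0.26. Mdr1- replicate 2 was the highest for 53 members, as it was for 18.2% of all tested genes, and without it the median was -0.28. All 7 tested members with 0 counts in a library had that 0 in Mdr1+ replicate 3.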

How the data were processed

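The 3 Mdr1+ and 3 Mdr1- libraries were grouped by their titles. The authors deposited raw read counts per gene symbol in 1 table. TopHat, HTSeq, DESeq2 and the build mm9 appear in the submitters' processing notes, without versions; annotation and strand option: not given in the sources used here. RNA was column-purified and made into stranded total RNA libraries, per the labels' protocols. HTSeq's unassigned classes (reads without a unique position, and 13.2% to 19.7% in no feature, both of replicates 1 and 2) stayed out of library sizes and tests. Overlapping and antisense genes are uncertain where the strand setting is unknown.

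The columns of replicate 3 were assigned to the gene names sorted ignoring case, which moves 19002 names (81.3%) to another row. Their Spearman correlations with the other libraries were 0.424 to 0.460 as deposited and 0.926 to 0.962 after that, against 0.957 to 0.969 among replicates 1 and 2.

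Tests used edgeR 4.0.16 in R 4.3.3 (TMM, filterByExpr by group, robust quasi-likelihood F test) on the whole table, with Benjamini-Hochberg adjustment over 10897 genes. Alternatives used DESeq2 1.42.0 (Wald test), other size factors, no filter, left-out libraries and a block. Pairing by number was accepted because the deviations from group means of same-numbered libraries correlated at 0.409, 0.568 and 0.213, all over 0.1; the labels do not state a pairing. SE is the absolute log2 fold change over the square root of F. Scripts were tested on simulated data. Pair ratios add 0.5 CPM. Counting precision follows depth, with 3 counts as the floor.

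Named are the members called in either fit (1 of them is not reported here by name or value), the lowest and highest fitted value per complex at an average log2 CPM of at least 2, complex II, Cycs, isoforms from separate genes, untested members, and called genes of related lists; of the cell cycle genes only Mki67 and the exception are named. The members and lists were chosen with earlier results of these data known. No coordinates of genes are given in mm9; promoter windows are RefSeq GRCm38.p6 and exon lengths GENCODE vM21 (GRCm38).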

Additional observations from a re-analysis of the deposited data

How the results depend on the processing

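With replicate number as a block, the calls were 21 members lower (0 without it), 716 of all genes lower and 633 higher, and 7 related genes lower and 2 higher. DESeq2's Wald test without the block called 0 members, 382 of all genes lower and 103 higher, and 2 related genes lower. No filter gave 52 of all genes higher. With replicate 3 as deposited, 0 of all genes passed in either direction, and 5 named members changed sign: Ndufs3 (-0.54), Uqcrh (-0.23), Cycs (-0.41), Cox7a2l (-0.25) and Atp5k (0.051). With the block Cox7a2l was at -0.017, and among the named members no call other than the 21 changed.

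Leaving out each library or replicate number gave 0 to 196 of all genes lower and 0 to 15 higher, 0 members and 0 related genes in either direction, and a members' median of -0.49 to -0.26. Under these, Uqcrh ranged from -0.14 to 0.16, Cox7a2l from -0.23 to 0.29, Atp5sl from -0.21 to 0.13 and Atp5g1 from -1.48 to 0.13, all on the log2 scale; other named members kept their sign.

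With the block and no filter, 32 members were lower and 991 of all genes higher. With the block and a replicate number left out (chosen after seeing the data), 6 to 41 members were lower and 0 to 1 higher, 392 to 1347 of all genes lower and 259 to 1131 higher, 0 to 13 related genes lower and 1 to 4 higher, and the members' median was -0.50 to -0.36. Of the 21 calls, 4 (Atp5a1, Cox5a, Sdha and Sdhd) held in all 6 alternatives with the block, 8 held in 5, 4 held in 4 and 5 held in 3. The causes were not tested, beyond the fewer samples that some alternatives use. Depth limits mainly Mdr1+ replicate 3, where 3 counts equal 1.35 CPM.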
